A study of Mus musculus with 21 samples.

Results

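The genes described here are 9 complement components and regulators, *C3*, *C2*, *C4b*, *Cfb*, *Cfi*, *Cfp*, *C3ar1*, *C5ar1* and *Cd55*, out of 27997 genes named on either of the array designs of the study. They were found by gene symbol, or by the gene of the RefSeq record a probe was designed for, and each gene is given by its brightest probe. Total colon RNA of male germ-free (GF) C57BL/6J mice, either WT or Card9-/-, was measured on one-color Agilent arrays, each with a single sample. At day 0, before dextran sulfate sodium (DSS), a sulfated polysaccharide that injures the colon epithelium, 7 arrays were labelled GF Card9-/- and 6 GF WT. At day 7, after 7 days of 2% DSS in the drinking water, 4 arrays were labelled GF Card9-/- and 4 GF WT. The labels also name DSS as the treatment of the day 0 samples and give no age. The day 0 arrays were of another design than the day 7 arrays, so the labels were compared within each day, and the day and the design cannot be told apart.

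Complement is a cascade of plasma and tissue proteins that marks microbes and damaged cells. The classical pathway cleaves C4 and C2 and the alternative pathway cleaves factor B, and both form enzymes that cut C3, the central protein of the cascade. The small fragments C3a and C5a act on receptors of myeloid cells, and regulators such as factor I and CD55 hold the cascade back on host cells. Besides the liver, intestinal epithelium, stroma and myeloid cells make several of these proteins. CARD9 is an adaptor of myeloid cells that carries signals from pattern recognition receptors.

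*Card9*, the targeted gene, ran against the labels. At day 0 its brightest probe was well above background on 7 of 7 arrays labelled GF Card9-/-, with log2 signals of 8.71 to 9.24, and on 0 of 6 arrays labelled GF WT. Set against the dimmest detectable probes of the GF WT arrays, the excess in GF Card9-/- was at least 21.5-fold. The fit on the signals as measured, not set against these probes, gave a limma adjusted p of 2.9e-13. At day 7 the 4 arrays labelled GF Card9-/- gave log2 signals of 7.93 to 8.57, GF WT replicate 1 gave 7.85, and the other GF WT arrays gave 2.38 to 2.41. Whether these probes lie in the deleted part of the gene is not given in the sources used here. GF Card9-/- and GF WT are therefore the names on the arrays in all that follows, and every direction is that of the labels. The share of spots well above background ran from 42.2% to 57.1% over the day 7 arrays and from 54.5% to 64.9% over the day 0 arrays.

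Other arrays stood apart in the levels of cell type markers. The mean log2 level of 7 pancreas genes was 17.33 in GF Card9-/- replicate 7 at day 0, and lay between 5.54 and 6.91 in the other day 0 arrays. At day 7 it was 15.74 in GF Card9-/- replicate 6 and 12.01 in replicate 2.1, and 5.14 to 7.29 in the others. The labelled tissue was checked with a colonocyte list, of which 8 of 8 genes were well above background on most arrays at both days. Macrophage and fibroblast markers also varied between the day 0 arrays, with mean log2 levels of 8.34 to 10.98 and of 10.18 to 13.67.

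The deposited probe sequences show what the arrays read. The probe of *Cfb*, used at both days, and the day 0 probe of *Cd55* each cross an exon junction, since their 60 bases map to 34993502 to 34993858 of chromosome 17 and to 132336925 to 132344911 of chromosome 1 (NCBI37 build, minus strand). Both are shown, as deposited, because they read spliced RNA.
Cfb: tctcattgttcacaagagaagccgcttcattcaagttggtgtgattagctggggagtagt
Cd55: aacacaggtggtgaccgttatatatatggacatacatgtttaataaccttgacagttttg
The values of the other members come from probes that lie within single stretches of the genome, of which that of *C5ar1* at day 0 was mapped over 42 bases. A dimmer *Cfp* probe at day 0 crosses a junction as well. *C2*, *Cfb* and *C4b* lie close together on chromosome 17, with probes that start at 34999575, 34993502 and, at day 0, 34865367, and the brightest *C3* probe starts at 57343416 of the same chromosome. *C4b* has the near-identical neighbor *C4a* and *Cd55* the near-identical neighbor *Cd55b*, so the signal of each may hold RNA of its copy.

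Promoters from 250 bases before to 50 bases after the RefSeq start were at hand for 5 of the 9 genes (*C3*, *Cfp*, *C3ar1*, *C5ar1* and *Cd55*), on build GRCm38.p6. They were searched on both strands for GAGGAA (PU.1, a myeloid factor), TTGCNNAA (C/EBP factors), GGGNNTTTC (NF-kB, which CARD9 signaling activates) and TATAAA, the core promoter box that helps to place the start. No match overlapped another in these promoters. Those of *C3* and *C3ar1*, which lead the patterns among arrays below, are printed with matches in capitals, at chr17:57228087-57228386 and chr6:122856108-122856407, both on the minus strand.
C3: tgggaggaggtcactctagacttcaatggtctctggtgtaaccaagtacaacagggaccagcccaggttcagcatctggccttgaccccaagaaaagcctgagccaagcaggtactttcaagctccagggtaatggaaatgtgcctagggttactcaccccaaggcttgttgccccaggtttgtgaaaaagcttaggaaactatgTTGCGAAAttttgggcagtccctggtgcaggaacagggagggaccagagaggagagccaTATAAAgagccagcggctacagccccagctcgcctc
C3ar1: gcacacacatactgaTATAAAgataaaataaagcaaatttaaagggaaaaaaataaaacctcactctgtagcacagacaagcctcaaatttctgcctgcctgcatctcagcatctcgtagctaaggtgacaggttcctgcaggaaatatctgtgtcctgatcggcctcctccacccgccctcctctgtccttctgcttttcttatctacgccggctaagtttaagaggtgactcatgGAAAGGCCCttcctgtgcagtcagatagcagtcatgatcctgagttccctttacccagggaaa
Counted from the annotated start, the *C3* window holds a C/EBP match at -45 and a TATA box match at 15. In the *C3ar1* window, an NF-kB match on the reverse strand lies at -13 and a TATA box match at -235. *Cfp* has 2 matches of PU.1, whereas the windows of *C5ar1* and *Cd55* hold no match of these motifs. Of the 32851 promoters of the table, 28.3% hold the PU.1 letters, 10.8% those of C/EBP, 4.36% those of NF-kB and 13.6% those of the TATA box.

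At day 7, none of the 9 complement genes differed between the labels beyond the spread between arrays. Compared to GF WT, 7 of 9 were higher and 2 were lower in GF Card9-/-, with a median log2 difference of 0.23. Over all 20965 genes tested the median was -0.0010 and 49.7% were higher. By limma, 0 of 9 passed an adjusted p of 0.05, as did 0 of all 44643 probes tested (0%). An unadjusted p under 0.05 was found for 0 of 9, against 1511 of all probes (3.38%). The labels overlapped for all 9 genes, against 2.13% of all probes whose labels do not overlap. Several marker lists leaned the same way at day 7, with 0 genes past the threshold. Higher in GF Card9-/- were 6 of 6 neutrophil genes tested (median 0.81), 8 of 8 colonocyte genes (median 0.32), 4 of 5 adipocyte genes (median 1.45) and 6 of 7 pancreas genes (median 5.09, 3 not overlapping). Also higher were 7 of 8 macrophage genes (median 0.06), 4 of 5 mesothelium genes (median 0.41) and 5 of 6 B and plasma cell genes (median 0.38). Of the hepatocyte genes, 2 were higher and 2 lower (median 0.44). Of the fibroblast genes, 6 of 7 were lower (median -0.08). The mean neutrophil level was 6.99 to 7.88 in GF Card9-/- and 6.24 to 6.78 in GF WT, without overlap, and 2 of the 6 neutrophil genes did not overlap. Of these 6 genes, 3 were well above background on most arrays. The level thus rests partly on values near the limit of the array. The part of these cells in the values of the complement genes was not tested. These p-values measure only the spread between these samples, since the labels do not say more of how replicates were taken.

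**Figure D1:**
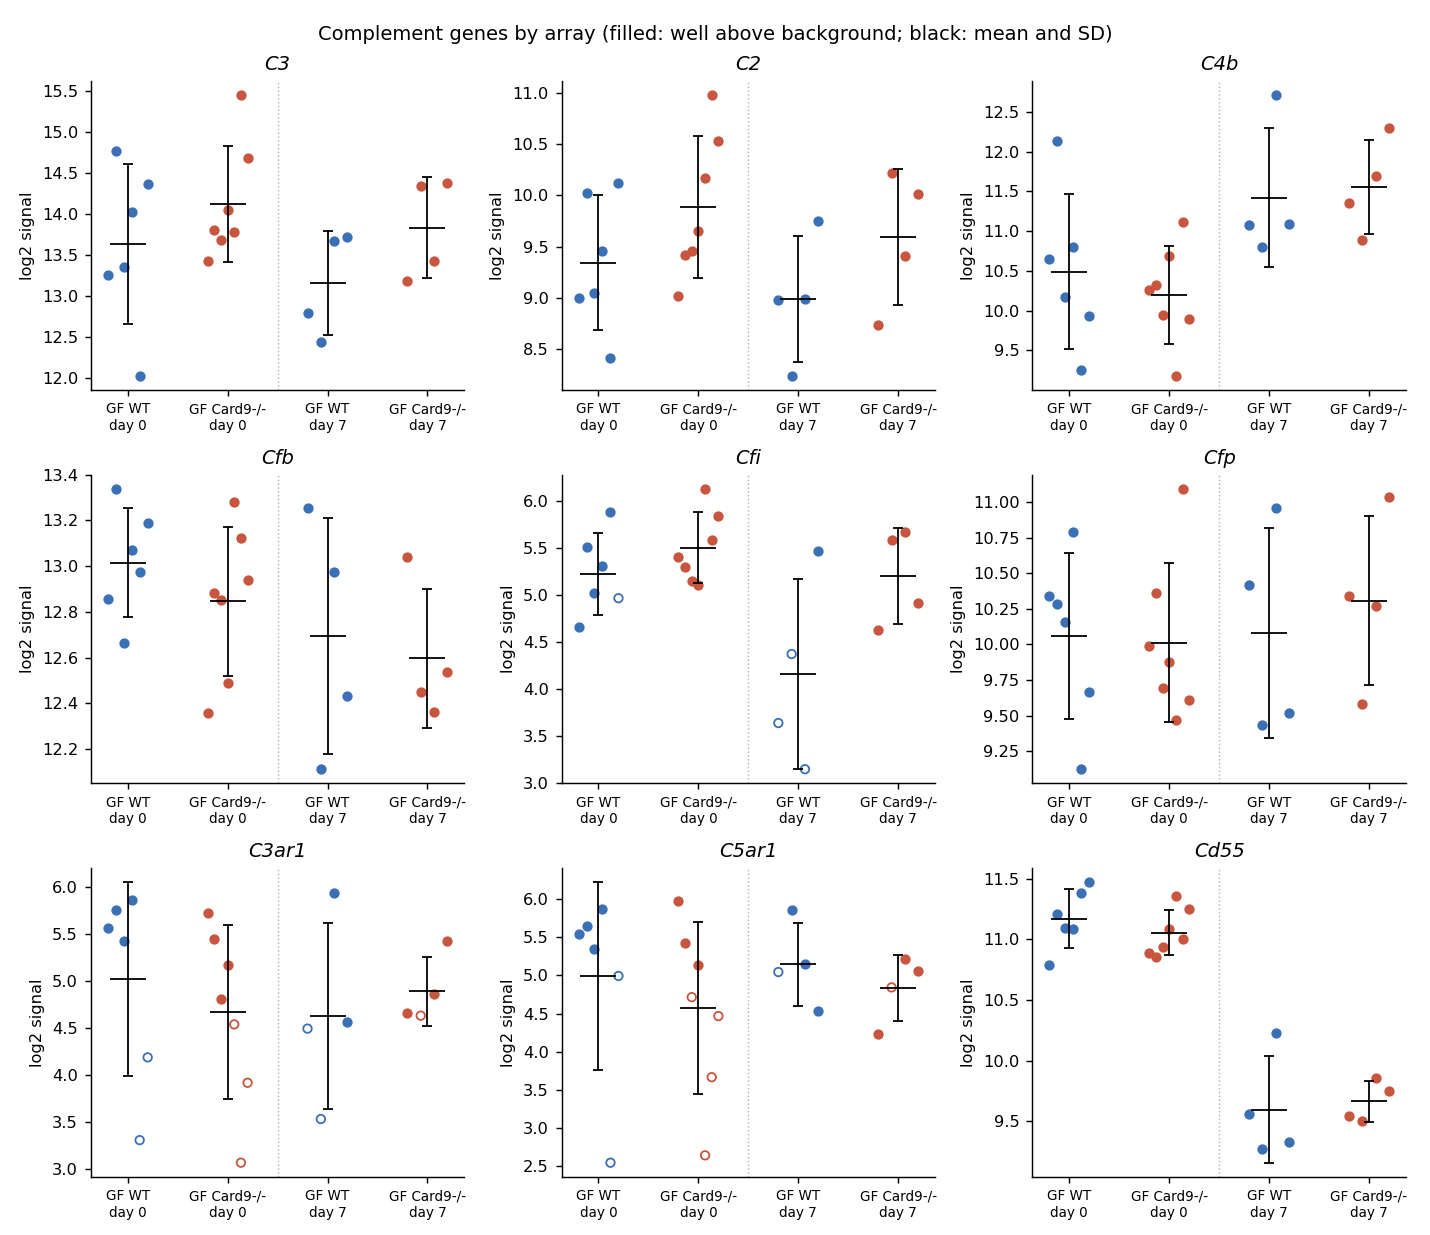
Log2 signal (quantile normalized within a day) of the 9 complement genes in each array, by label and day, with the mean and SD of each group in black. Filled points are well above background and open points are not. The points of both labels overlap in every panel, and the days are of different array designs.

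*C3*, which encodes the central protein of the cascade, was read by 2 probes at both days. At day 7 its log2 signals were 13.18, 14.34, 13.42 and 14.37 in GF Card9-/- replicates 2, 2.1, 4 and 6. In GF WT replicates 1, 4, 5 and 6 they were 12.80, 12.44, 13.66 and 13.71. The 2 arrays that were highest, GF Card9-/- 2.1 and 6, are also those with the highest pancreas markers, whose part in the value was not tested. The difference was 0.67 ± 0.41 (SE, n = 4 and 4), with a 95% interval of -0.28 to 1.62 (limma adjusted p = 0.913). It was 0.15 without both of these arrays. The other *C3* probe gave 0.54 ± 0.48.

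*C2*, the protease of the classical pathway, followed *C3* closely. Its log2 signals at day 7 were 8.74, 10.22, 9.40 and 10.01 in GF Card9-/- replicates 2, 2.1, 4 and 6, and 8.97, 8.23, 8.99 and 9.75 in GF WT replicates 1, 4, 5 and 6. The order of the GF Card9-/- arrays was nearly that of *C3*, with 2.1 and 6 on top. The difference of 0.61 ± 0.42 (95% interval -0.37 to 1.59, limma adjusted p = 0.913) became 0.08 without these same arrays. *C4b*, which is cleaved together with *C2*, was highest in GF WT replicate 5 at 12.71. Its other GF WT arrays lay between 10.81 and 11.09 and the GF Card9-/- arrays between 10.89 and 12.29. The difference was 0.14 ± 0.48, with an interval of -0.99 to 1.26.

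Of the alternative pathway, *Cfb*, which encodes factor B, gave 12.36 to 13.04 in GF Card9-/- and 12.11 to 13.25 in GF WT. Its difference of -0.10 ± 0.28 had an interval of -0.76 to 0.56. *Cfp* encodes properdin, which stabilizes the C3-cutting enzyme and comes mainly from leukocytes. It ranged from 9.58 to 11.04 and from 9.43 to 10.96, with a difference of 0.23 ± 0.43.

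Among the regulators, *Cfi*, which encodes the protease factor I, differed by 1.05 ± 0.52 at day 7 (95% interval -0.16 to 2.25, limma adjusted p = 0.913). Its log2 signals were 4.63, 5.59, 5.67 and 4.92 in GF Card9-/- replicates 2, 2.1, 4 and 6. They were 3.64, 4.37, 3.14 and 5.47 in GF WT replicates 1, 4, 5 and 6. Only replicate 6 of the GF WT arrays was well above background, against 4 of 4 GF Card9-/- arrays, so most GF WT values are near the limit of the array. With dim values raised to the dimmest detectable probe of each array the difference was 0.41, below those of *C3* and *C2*. *Cd55* encodes a membrane protein that breaks up the C3-cutting enzymes. It differed by 0.07 ± 0.23, and its interval of -0.46 to 0.60 was the narrowest at day 7.

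The receptors were dim. *C3ar1*, the receptor of C3a, was well above background on 3 of 4 GF Card9-/- and 2 of 4 GF WT arrays. Its log2 signals were 4.66, 4.63, 4.86 and 5.42 in GF Card9-/- replicates 2, 2.1, 4 and 6, and 4.49, 3.53, 5.93 and 4.56 in GF WT replicates 1, 4, 5 and 6. The GF WT arrays thus held both the lowest and the highest value, and the difference was 0.26 ± 0.48. *C5ar1*, the receptor of C5a, differed by -0.31 ± 0.32, and 3 of 4 arrays under either label were well above background.

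GF WT replicate 4 was the lowest of the 8 day 7 arrays for 7 of the 9 genes. Leaving it out turned the differences of *C4b* (-0.07), *C3ar1* (-0.11) and *Cd55* (-0.04), and brought *C3* to 0.44, *C2* to 0.36, *Cfp* to 0.01 and *C5ar1*, for which it was the highest array, to -0.07. Except for *Cfi*, leaving out at least 1 single array moved the day 7 difference of each of the 9 genes by over 1.5 times. GF WT replicate 1 was the array with *Card9* signal. Without it, *C3* differed by 0.55, *C2* by 0.60, *Cfi* by 0.87 and *Cfb* by 0.09, and 0 of 9 genes passed the threshold. Of the 6 slides at day 7, 2 held both labels, each with 1 array of each. On these the difference of *C3* was -0.53 and 1.89 and that of *Cfi* was -0.84 and 1.22, so the slides disagreed in sign for both genes. *C2* did the same, with -1.02 and 1.99. The other 6 genes had the same sign on both slides. *C4b*, *Cfb*, *Cfp*, *C3ar1* and *Cd55* were higher in GF Card9-/- and *C5ar1* was lower, and *Cfb* gave 0.61 and 0.34 against -0.10 over all arrays.

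**Figure D2:**
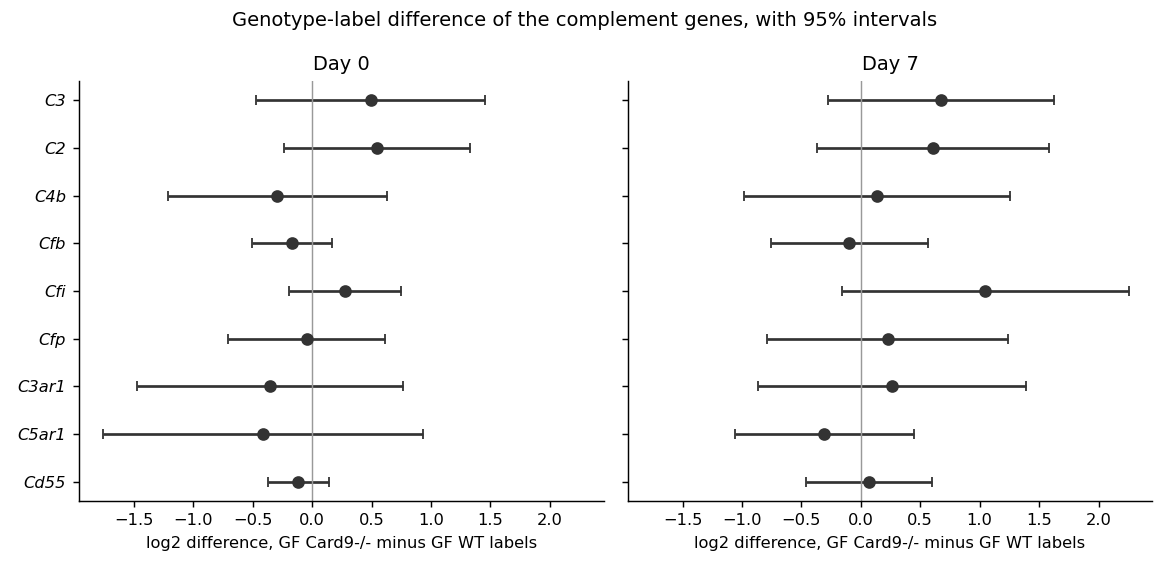
Log2 difference, GF Card9-/- minus GF WT by label, for the 9 complement genes at day 0 (left) and day 7 (right), with the 95% interval of the limma fit. Every interval includes 0, and *Cd55* and *Cfb* had the narrowest intervals at day 0.

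At day 0, the 9 genes did not differ between the labels beyond the spread between arrays either. Compared to GF WT, 3 were higher and 6 lower in GF Card9-/-, with a median log2 difference of -0.12, while over all 23499 genes tested the median was 0.01 and 55.5% were higher. By limma, 0 of 9 passed an adjusted p of 0.05, against 12 of 47410 probes (0.0253%), and 0 of 9 had an unadjusted p under 0.05, against 2769 of these probes (5.84%). No member had labels that do not overlap, as 0.458% of all probes did. The adjusted p-values of the members ran from 0.912 to 0.990.

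*C2* and *C3* were the members with the largest positive differences at day 0. *C2* had log2 signals of 9.01, 9.65 and 10.98 (lowest, median and highest) in GF Card9-/- and 8.40, 9.25 and 10.12 in GF WT, a difference of 0.55 ± 0.36 (SE, n = 7 and 6, 95% interval -0.24 to 1.33). *C3* had 13.42, 13.81 and 15.45 against 12.03, 13.69 and 14.76, a difference of 0.49 ± 0.44 (interval -0.47 to 1.46). For both genes GF Card9-/- replicate 6 was the highest array and GF WT replicate 5 the lowest. Without GF WT replicate 5 the difference of *C3* was 0.17 and that of *C2* was 0.36. Both genes were higher in GF Card9-/- on 4 of 4 slides that held both labels, by 0.05 to 1.44 for *C3* and by 0.08 to 1.53 for *C2*, and in 2 of 2 scan sessions. *C4b* was lowest in GF Card9-/- replicate 5 (9.18) and highest in GF WT replicate 2 (12.14), and differed by -0.29 ± 0.42.

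The members with the smallest spread were *Cd55* and *Cfb*. *Cd55* ranged from 10.86 to 11.35 in GF Card9-/- and from 10.79 to 11.47 in GF WT, and its interval of -0.37 to 0.14 corresponds to 0.773-fold to 1.10-fold. The 4 *Cd55* probes differed by -0.16 to -0.0047. *Cfb* differed by -0.17 ± 0.16 (interval -0.51 to 0.17), and its other probe by -0.25 ± 0.17. *Cfi* was higher in GF Card9-/- by 0.28 ± 0.22, with 7 of 7 and 5 of 6 arrays well above background, and *Cfp* differed by -0.05 ± 0.30. Single arrays moved these small differences too. *Cd55* ran from -0.19 without GF WT replicate 1 to -0.06 without GF WT replicate 6. *Cfb* was -0.09 without GF Card9-/- replicate 1, and *Cfi* was 0.17 without either GF Card9-/- replicate 5 or GF WT replicate 1.

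The receptors had the widest intervals at day 0. *C3ar1* had log2 signals of 3.07, 4.80 and 5.72 (lowest, median and highest) in GF Card9-/- and 3.31, 5.49 and 5.86 in GF WT, a difference of -0.35 ± 0.52. *C5ar1* had 2.65, 4.71 and 5.98 against 2.55, 5.45 and 5.87, a difference of -0.42 ± 0.62. Without GF WT replicate 5, the lowest GF WT array for both, they differed by -0.69 and -0.90. *C3ar1* differed by -0.09 without GF Card9-/- replicate 6, and *C5ar1* by -0.09 without GF Card9-/- replicate 5. With dim values raised to the dimmest detectable probe of each array, the differences over all arrays shrank to -0.22 and -0.18. The receptors were well above background on part of the arrays, 4 of 7 and 4 of 6 for *C3ar1* and 3 of 7 and 4 of 6 for *C5ar1*. Macrophage markers moved with them, as 8 of 8 macrophage genes were lower in GF Card9-/- at day 0 with a median of -0.54 and 0 of 8 past the threshold. So were 7 of 7 fibroblast genes (median -0.84) and 5 of 5 B and plasma cell genes (median -0.18), again with 0 past the threshold. The part of these cells in the receptor differences was not tested. In whole tissue, fewer cells of a type and less RNA per cell cannot be told apart.

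Whether the label difference itself changed from day 0 to day 7 was tested for the 6 members with a probe on both designs, in a joint fit over 23633 probes. None of the 6 passed an adjusted p of 0.05, and neither did any other probe (0%). The change was largest for *C3ar1*, 0.61 ± 0.78, with an interval of -1.01 to 2.24 (limma adjusted p = 0.907). For *C3* it was 0.18 ± 0.66, for *C2* 0.06 ± 0.58, for *Cfp* 0.27 ± 0.53, for *Cfb* 0.07 ± 0.30 and for *Cd55* 0.07 ± 0.20. For *Cd55* the joint fit used the day 7 probe at both days, which is not its brightest probe at day 0. That probe differed by -0.0047 at day 0 and by 0.07 at day 7. *C4b*, *C5ar1* and *Cfi* were read by different probes on the designs and were not tested.

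The arrays of a label differed among themselves, and some members did so together. Each value was set against the mean of its label and day, and correlations were computed over the 13 day 0 arrays and the 8 day 7 arrays for 36 pairs of members and for each member with 9 marker lists. This gave 234 relations in all, with permutations within the labels (100000 at day 0, all 576 at day 7) and Benjamini-Hochberg adjustment over the 234. All arrays share the normalization of their day, and a low or high array enters every pair.

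*C3* and *C2* moved together at day 0, and at day 7 their r was also high but did not pass the threshold. Their r was the highest of the 36 pairs at day 0, where by rho *C3ar1* and *C5ar1* were closer, and at day 7 the r of *C4b* with *C3ar1* and with *Cd55* was higher. At day 0, r was 0.92 and rho 0.91 (permutation test, adjusted p = 0.00702 and 0.00527), 0.88 without the 2 arrays farthest from the median of *C3*, and 0.96 and 0.90 within the scan sessions. At day 7, r was 0.89 and rho 0.90 (exact permutation test, adjusted p = 0.0542 and 0.123), and 0.75 without the 2 farthest arrays. *C2* was also the gene most like *C3* of 12435 genes well above background on all 21 arrays, with r = 0.91. After it came the RIKEN transcript *3930401B19Rik* (0.81), *Rspo1*, an activator of Wnt signaling (0.79), and the adaptors *Dok2* (0.77) and *Sh2b2* (0.75). These were picked as the highest, so no test was made.

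Markers of mesothelium, the cell layer on the outside of the colon, moved with the same arrays at day 0. The mean level of these 5 genes correlated with *C2* at r = 0.88 and rho = 0.95 (permutation test, adjusted p = 0.0216 and 0.00527) and with *C3* at r = 0.75 and rho = 0.80 (adjusted p = 0.0738 and 0.066). Within the scan sessions r was 0.92 and 0.86 for *C2*, and without the 2 arrays farthest from its median it was 0.90. At day 0, 5 of 5 mesothelium genes were higher in GF Card9-/-, with a median of 0.91 and 0 past the threshold, and their mean level ran from 6.70 to 8.88 in GF Card9-/- and from 5.66 to 8.23 in GF WT. Their part in the *C2* and *C3* differences was not tested. At day 7, r with mesothelium was 0.53 for both genes. Only 2 of the 5 mesothelium genes were then well above background on most arrays, against 5 of 5 at day 0.

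**Figure D3:**
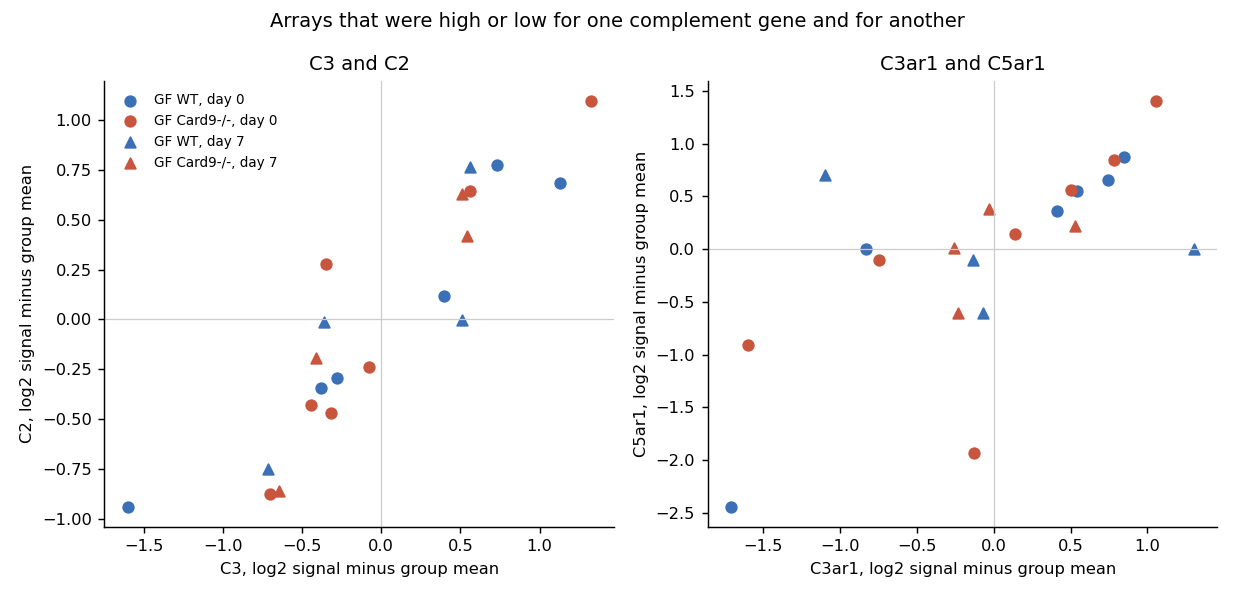
Log2 signal less the mean of its label and day, for *C3* against *C2* (left) and *C3ar1* against *C5ar1* (right), 1 point per array. For *C3* with *C2*, r was 0.92 at day 0 and 0.89 at day 7, and for *C3ar1* with *C5ar1* it was 0.80 and -0.22. Of these, only *C3* with *C2* at day 0 passed the adjusted threshold by r. *C5ar1* was read by another probe at day 7, many receptor values lie below the detection limit, and the days were not tested against each other.

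At day 0 the measured signals of the receptors moved with macrophage and fibroblast markers, but much of this lay below the detection limit. *C5ar1* correlated with the fibroblast list at r = 0.92 and rho = 0.87 (permutation test, adjusted p = 0.00702 and 0.0183) and with the macrophage list at r = 0.86 and rho = 0.89 (adjusted p = 0.0216 and 0.0035). Without the 2 arrays farthest from its median these were 0.82 and 0.60. For *C3ar1*, r was 0.82 with fibroblast and 0.75 with macrophage markers (adjusted p = 0.0542 and 0.075), and rho was 0.82 and 0.87 (adjusted p = 0.057 and 0.015). The receptors followed each other at r = 0.80 and rho = 0.96 at day 0 (permutation test, adjusted p = 0.0556 and 0.00234). Among the arrays that were low for both were GF WT replicate 5 and GF Card9-/- replicates 5, 6 and 7, whose macrophage levels were 8.47, 8.34, 9.76 and 8.93. On these 4 arrays, and on GF WT replicate 6, neither receptor was well above background. With values below the dimmest detectable probe of an array raised to it, a setting chosen after seeing the data, no relation of a receptor with these lists passed. For *C5ar1* r was then 0.60 with fibroblast and 0.59 with macrophage markers (permutation test, adjusted p = 0.20 for both). For *C3ar1* it was 0.62 and 0.64 (adjusted p = 0.198 for both). The pair of receptors then shares the limit of each dim array, so its r with raised values is not given. GF Card9-/- replicate 5 had a log2 signal of 2.65 for *C5ar1* and of 4.54 for *C3ar1*. The 5 genes most like *C3ar1* over the 21 arrays were *Rarres2* (r = 0.88), which encodes the chemoattractant chemerin, *Dnaic1* (0.88), *Srpx2* (0.88), *Fndc3b* (0.87) and *Plac9a* (0.86), picked as the highest and not tested, and they rest on the same dim values.

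At day 7 no relation passed the adjusted threshold. The smallest p that 576 permutations allow is 0.00174, which for 1 relation alone out of 234 would give an adjusted p of 0.406, so this says little. *Cfp* correlated with the macrophage list at r = 0.98 and rho = 0.93 (exact permutation test, adjusted p = 0.0641 and 0.123). *C4b* correlated with *C3ar1* at r = 0.91 and rho = 0.90 (exact permutation test, adjusted p = 0.0542 and 0.0677), which was 0.59 without the 2 arrays farthest from the median of *C4b*. Both *C4b* and *C3ar1* were highest in GF WT replicate 5, the array with the highest macrophage and fibroblast levels at day 7 (9.36 and 12.94). The levels of the neutrophil list did not overlap between the labels, but only 3 of its 6 genes were well above background on most arrays. With this list, *C3ar1* had r = 0.73 and rho = 0.93 (exact permutation test, adjusted p = 0.0542 and 0.0677) and *C4b* r = 0.81 and rho = 0.86 (adjusted p = 0.0641 and 0.14). At day 0 *C4b* and *Cfp* had r = 0.79 and 0.74 with the macrophage list.

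*Cd55* had r = -0.81 and rho = -0.66 with the macrophage list at day 0 (permutation test, adjusted p = 0.0542 and 0.14), and neither passed the threshold. *Cd55* was highest in GF WT replicates 5 and 6 (11.38 and 11.47), which were low in macrophage markers. With the hepatocyte list it had r = 0.81 and rho = 0.84 at day 0 (permutation test, adjusted p = 0.0542 and 0.0361), 0.87 without the 2 arrays farthest from its median and 0.96 and 0.72 within the scan sessions. At day 7, read by another probe, it had r = 0.86 with the macrophage and -0.11 with the hepatocyte list. With the B and plasma cell list, *Cfp* had r = 0.80 at day 0 and 0.83 at day 7 (permutation tests, adjusted p = 0.0542 and 0.178). Neither passed the threshold.

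**Figure D4:**
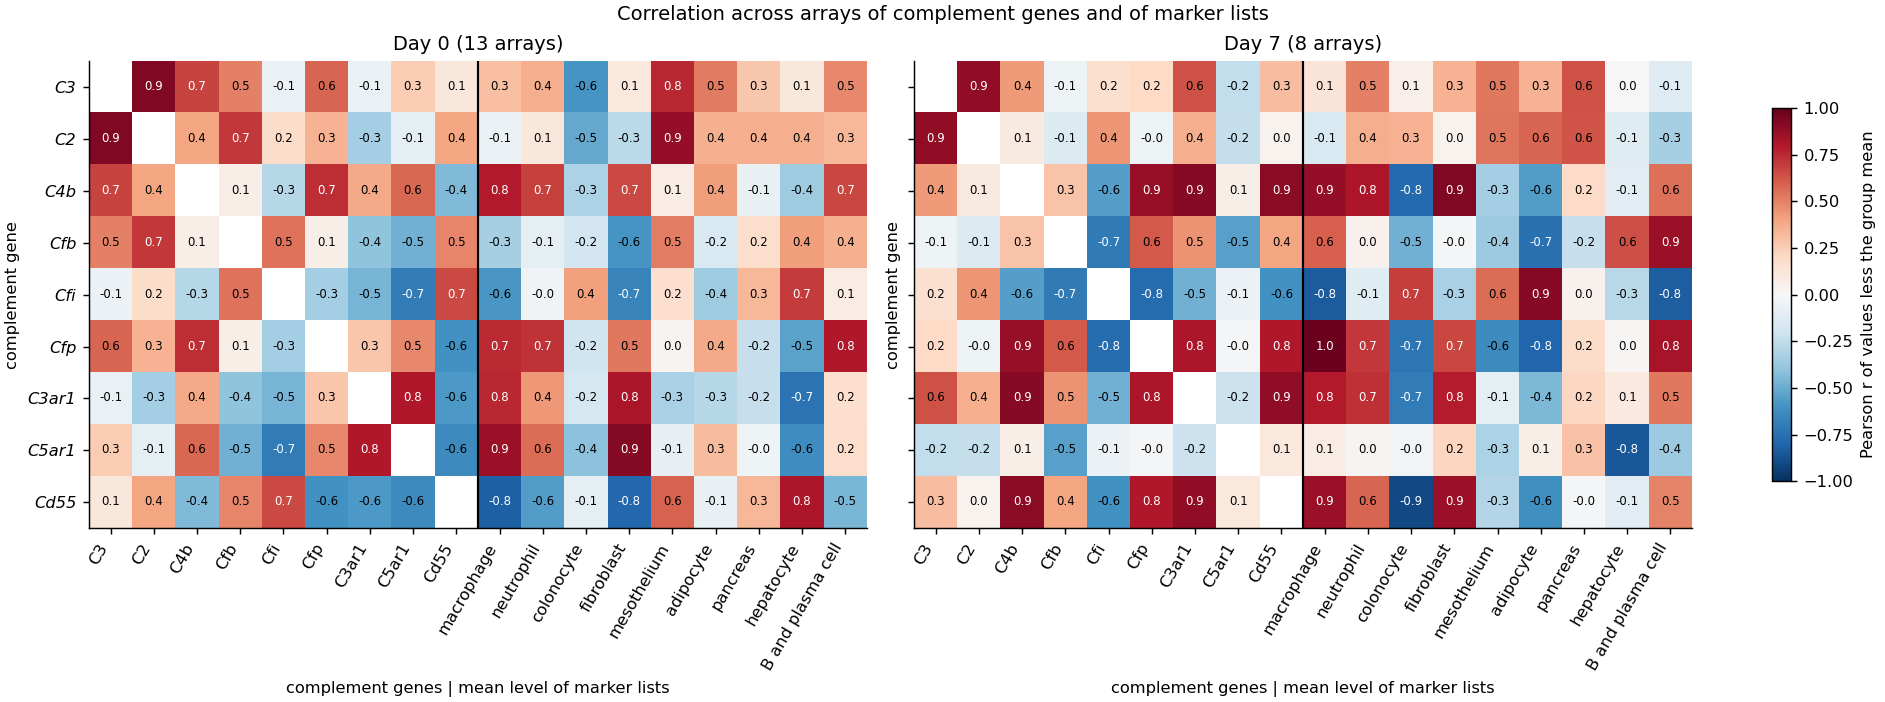
Pearson r across arrays, of values less the mean of their label and day, between the 9 complement genes (rows) and each other or the mean level of 9 marker lists (columns, right of the black line), at day 0 and day 7. *C3* with *C2* is high at both days, and the receptors are high with macrophage and fibroblast markers at day 0, with values below the detection limit included.

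Of 36 other genes of the complement pathway that were looked up, 32 were tested at each day. At day 7, 19 were higher and 13 lower in GF Card9-/- with a median of 0.13, and at day 0, 12 were higher and 20 lower with a median of -0.08. By limma 0 of 32 passed the threshold at either day, and 2 of 32 and 1 of 32 had an unadjusted p under 0.05 at day 7 and day 0, where 3.38% and 5.84% of all probes did. At day 7 the labels did not overlap for 2 of 32 genes, against 2.13% of all probes. These were *Masp2*, a protease of the lectin pathway, and *C9*, a part of the pore. *Masp2* differed by -1.65 ± 0.81 and was well above background on 1 of 8 arrays. *C9* differed by -0.61 ± 0.16 and was well above background on 0 of 8, so both lie at the limit of the array.

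Among the pathway genes well above background on at least 50% of the arrays, the largest differences at day 7 were those of *Cfd* (1.01 ± 0.75), *Hc* (0.98 ± 1.17) and *Vtn* (0.62 ± 0.62) upward and of *C1s1* (-0.42 ± 0.51), *C8g* (-0.27 ± 0.24) and *Serping1* (-0.24 ± 0.47) downward. *Cfd* encodes factor D, the protease that cuts factor B and is known from adipocytes, and *Hc* encodes C5. The adipocyte list was also higher in GF Card9-/- at day 7, as given above, and its part in the *Cfd* difference was not tested. At day 0 they were *Hc* (0.80 ± 0.61), *C4bp* (0.44 ± 0.18) and *Cd46* (0.32 ± 0.39) upward, and *Cfd* (-0.94 ± 1.98), *Masp1* (-0.72 ± 0.70) and *C1s1* (-0.44 ± 0.58) downward. Single arrays decided the sign or size of some of these. *Cfd* at day 0 was 0.91 without GF Card9-/- replicate 5, whose log2 signal was 2.26 and whose mean adipocyte level was 6.54, against 8.97 to 12.11 in the other day 0 arrays. *Cd46* at day 0 was -0.07 without GF WT replicate 6. At day 7, without GF WT replicate 5, *C1s1* was 0.09, *Serping1* was 0.19, *Cfd* was 0.50 and *Hc* was 0.22, and without GF Card9-/- replicate 6 *Vtn* was 0.11 and *C8g* was -0.09. At day 0, without GF Card9-/- replicate 5, *Masp1* was -0.28 and *C1s1* was -0.21, and *Hc* was 0.48 without GF WT replicate 4. *C4bp*, a cofactor of factor I, had an unadjusted p of 0.0301 at day 0 and an adjusted p of 0.782 (limma). The 3 chains of C1q, which macrophages make, differed by -0.39 to -0.30 at day 0 and by -0.06 to 0.12 at day 7. At day 0 they lay at -0.14 to -0.13 without GF Card9-/- replicate 5 and at -0.81 to -0.62 without GF WT replicate 5, and at day 7 the sign of each chain turned without any of 2 to 4 single arrays.

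**Figure D5:**
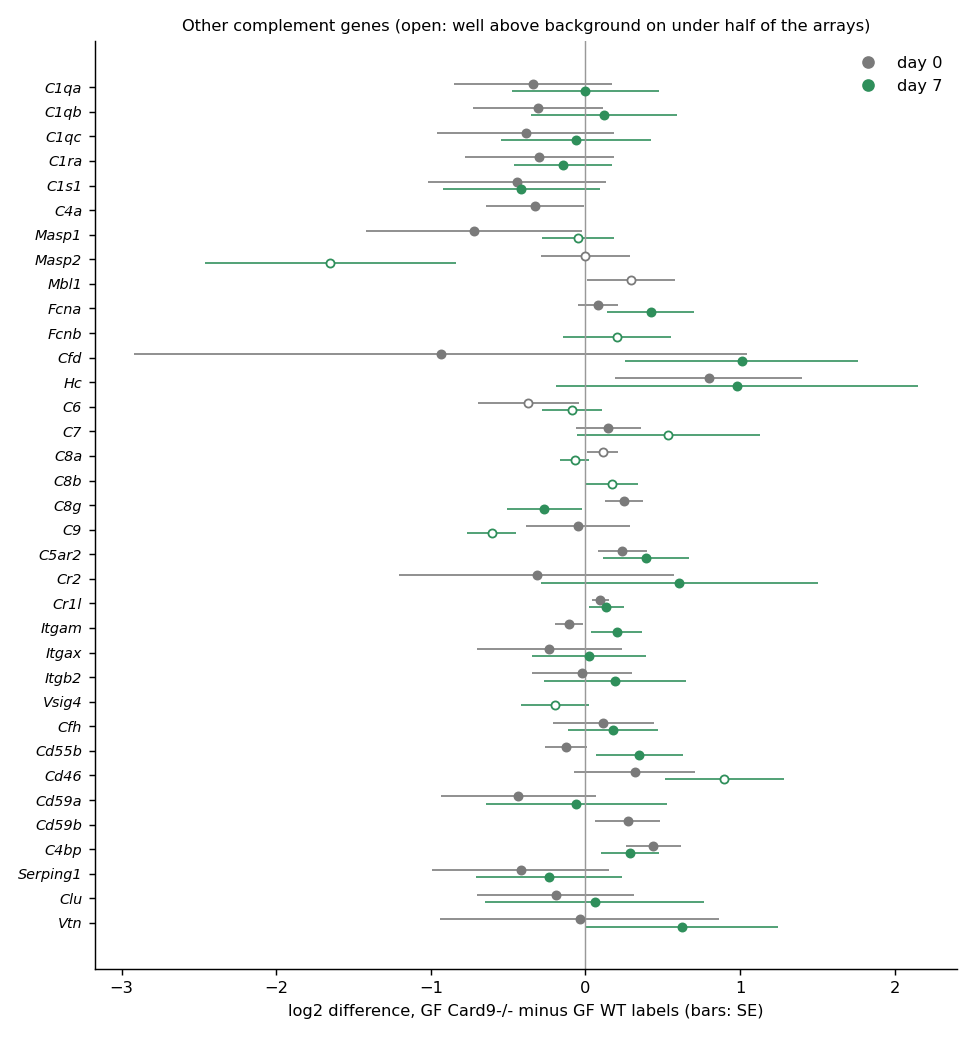
Log2 difference, GF Card9-/- minus GF WT by label, for the other complement pathway genes tested, at day 0 (gray) and day 7 (green), with the SE. Open points were well above background on under 50% of the arrays. The spread of *Cfd* at day 0 is the widest.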

How the data were processed

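Total colon RNA of 21 samples was measured on one-color Agilent arrays. Per the labels, the authors read the spots with Agilent Feature Extraction 10.7.3.1. The authors deposited a linear intensity for each spot with no normalization across arrays, a p-value of the spot against its background, spot flags, and for each design a table of log2 values.

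Here log2 of the processed signal was quantile normalized within a day over all spots. Control spots and flagged outliers were then left out, and repeated spots of 1 probe were averaged. Tested were probes whose spots had p under 0.05 in 60% or more of the arrays of either label, which were 44643 out of 55681 at day 7 and 47410 out of 56605 at day 0. Names came from the RefSeq record a probe was made for (27656 probes at day 7 and 32994 at day 0), else from the symbol in the files (5484 and 13297), and 22541 and 10314 probes stayed unnamed. The labels were compared by limma 3.58.1 in R 4.3.3 for each day alone, and jointly over shared probes for the change between days, with Benjamini-Hochberg adjustment at 0.05 over all probes tested and 95% intervals from the same fit. Differences are GF Card9-/- minus GF WT. The fit was tested on simulated data.

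The members and lists were chosen with earlier results of these data known. Besides *Card9* and the 9 members, the text names pathway genes that pass the threshold or whose labels do not overlap, the 3 largest differences in each direction among pathway genes well above background on at least 50% of the arrays, and the 5 genes most like *C3* and *C3ar1*. For replicates 2 and 2.1 of GF Card9-/- at day 7, the SD of their log2 difference was 0.852, against a median of 0.907 over the remaining pairs of a label, so each counts as a sample. Precision is limited by the number of arrays. Promoters are RefSeq's. Alternatives were other normalizations, background corrections, filters and probe choices, blocks for slide, scan session and replicate number, and leaving out arrays.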

Additional observations from a re-analysis of the deposited data

Results flagged for a closer look

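The highest and lowest array of each label and day was set against the others by Dixon's ratio for the 9 genes, and 2 of 36 groups had an array apart, where chance flags about 1 in 20. *C4b* in GF WT replicate 5 at day 7 had a log2 signal of 12.71, with the next GF WT array at 11.09. *C5ar1* in GF WT replicate 5 at day 0 had a log2 signal of 2.55, the lowest, with the next GF WT array at 4.99, and it was not well above background there.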

How the results depend on the processing

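Under no alternative did a complement gene pass the threshold at day 7, at day 0 or between the days. The direction was kept in 162 of 171 recomputed differences at day 7, 208 of 216 at day 0 and 115 of 132 between the days. Whether replicate numbers mark pairs of arrays could not be decided from so few arrays. Deviations of arrays with the same number correlated at -0.02 to 0.37 at day 0 (6 pairs, of which 2 GF Card9-/- arrays were closest to their own number). At day 7 they correlated at 0.03 and 0.11, and 1 GF Card9-/- array was closest to its own number. With the replicate number as a block, *Cfb* at day 7 turned to 0.18, *Cfp* at day 0 turned to 0.020, and 7 instead of 12 probes passed at day 0. At day 7 the same block, which leaves only the arrays numbered 4 and 6 to compare, gave 1.04 for *C4b*, 1.18 for *Cfp*, 1.09 for *C3ar1* and 0.50 for *Cd55*, larger than without it, and adjusted p of 0.832 for each. The day 0 count was 27 with normexp background correction, and 22 both with the deposited log2 table and with probes well above background only. At day 7, without GF Card9-/- replicates 2.1 and 6 together, *Cfb* was 0.0062 and 2 probes passed instead of 0. *C5ar1* at day 0 was 0.15 without the slide of GF WT replicate 6. The cause of these changes was not tested.

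Leaving out 1 array at a time at day 7 gave -0.11 to 0.57 for *C4b*, -0.29 to 0.090 for *Cfb*, -0.016 to 0.52 for *Cfp*, -0.11 to 0.70 for *C3ar1* and -0.041 to 0.28 for *Cd55*, and 0 to 1 probe passed. The turns came without GF WT replicate 4 (*C4b*, *C3ar1*, *Cd55*), GF WT replicate 1 (*Cfb*), GF WT replicate 6 (*Cd55*) or GF Card9-/- replicate 6 (*C4b*, *Cfp*). At day 0 the range was -0.54 to 0.037 for *C4b*, positive without GF WT replicate 2, and -0.23 to 0.10 for *Cfp*. Between the days it was -0.056 to 0.50 for *C3*, -0.19 to 0.35 for *C2* (-0.15 without GF Card9-/- replicate 2.1), -0.12 to 0.26 for *Cfb* and -0.037 to 0.28 for *Cd55*, with 0 to 2 probes past the threshold. *C3ar1*, *C5ar1* and *Cfi* lie near the background on many arrays, which limits what their differences can show.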
